A study of Mus musculus with 6 samples.

Results

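The genes described here were 10 rows on mouse chromosome 4 that lie in a block of copied sequence: Gm13307, Gm20878, Fam205a4, Gm13306, Gm21953, Gm21586, Fam205a2, Ccl27b, Gm3893 and Gm3883. They were 10 of the 38715 rows of the deposited expression table. They were taken by name, with their difference between the groups already known, so that difference is given as a description and nothing is supported by it. On GRCm39 they spanned 762.7 kb, from 41893278 to 42655998. The libraries were of total RNA from whole mouse testis, 3 labelled Control and 3 labelled Middle. The series compares control mice with mice exposed to MES. Middle is the only label beside Control, so those libraries were taken to be the exposed ones. The labels give no strain, age, dose, time of exposure or number of animals per library, and do not expand MES. Nothing in them says that the libraries came from separate animals, so the p-values below measure the spread between these libraries only.

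The block belongs to a part of chromosome 4 where several neighbouring genes were duplicated together. Ccl27 is a chemokine best known from skin, where it attracts T cells that carry the receptor Ccr10. The chemokines Ccl19 and Ccl21, which guide cells that carry Ccr7 into lymphoid organs, lie in the same stretch, as does the receptor for the cytokine Il11. The Fam205 genes belong with the Spata31 family, whose members are known mainly from testis. Haplotypes of this locus that differ between mouse strains are known, with extra or missing copies of the chemokine genes.

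The 10 genes were of 5 kinds by sequence. Gm20878, Gm21953 and Gm21586 each hold the same short reading frame of 264 bases, which the Ccl27a locus carries too. Gm13306 and Ccl27b hold the chemokine coding sequence itself. Fam205a4 and Fam205a2 are copies of the Fam205a gene, and Gm3893 and Gm3883 are related to each other and to further rows of the block. Gm13307 runs on the opposite strand across the start of Gm20878. All 10 symbols were found among the GENCODE M21 transcripts, the source of the coding sequences printed here. The shared reading frame is shown because reads within it can hardly be told apart among Gm20878, Gm21953, Gm21586 and Ccl27a. A transcript of Gm13306 also matched Gm21586 and Gm21953 at 98.5% over 262 bases, so that gene carries most of this sequence too. The frame was identical in Gm20878, Gm21953 and Gm21586. It differed from the Ccl27a frame by C79T and T82C, counted from 1 at the 5′ end of the Gm21586 frame. Capitals mark these bases.
Gm21586: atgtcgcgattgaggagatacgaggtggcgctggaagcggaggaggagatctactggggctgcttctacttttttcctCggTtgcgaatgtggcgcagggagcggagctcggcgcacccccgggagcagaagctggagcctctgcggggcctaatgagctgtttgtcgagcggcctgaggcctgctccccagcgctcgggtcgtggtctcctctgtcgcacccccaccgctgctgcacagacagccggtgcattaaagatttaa
Ccl27a: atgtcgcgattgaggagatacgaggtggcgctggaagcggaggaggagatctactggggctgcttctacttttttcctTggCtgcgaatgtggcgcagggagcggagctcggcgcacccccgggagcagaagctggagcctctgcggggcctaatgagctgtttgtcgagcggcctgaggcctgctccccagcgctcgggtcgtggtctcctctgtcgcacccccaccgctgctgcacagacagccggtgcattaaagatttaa

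The chemokine coding sequence was 363 bases long and identical in Ccl27b and Gm13306. Over 360 aligned bases it differed from Ccl27a by T177C, A297G and C343A, an identity of 99.17%, with positions counted from 1 at the start codon of Ccl27b. The Ccl27a coding sequence was 360 bases long, so it also differed in length. The stretch from base 127 to base 363 is shown because it holds the 3 substituted bases, marked in capitals.
Ccl27b: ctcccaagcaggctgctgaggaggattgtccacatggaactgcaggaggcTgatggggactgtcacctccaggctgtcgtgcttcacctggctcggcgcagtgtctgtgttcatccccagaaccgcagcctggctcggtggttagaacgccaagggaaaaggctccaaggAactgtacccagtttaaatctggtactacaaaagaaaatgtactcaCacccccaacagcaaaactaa

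The sequence before the start was shared as well, and it is shown as a second stretch in which copies can hardly be told apart. RefSeq promoter windows were given for 6 of the 10 genes. In the 250 bases before the start Gm20878, Gm21953 and Gm21586 were identical to each other, and Gm13306 was identical to Ccl27b. The Gm13306 window also matched that of Gm21586 at all of 196 aligned bases, so these windows are largely the same sequence at a shifted start. The Gm21586 window lies at chr4:42438725-42438974 on GRCm38.p6, plus strand. The Ccl27a window lies at chr4:41774177-41774426 on the same build, minus strand. They matched at 98.76% of 242 aligned bases, with 1 gap base and the substitutions G16A, T213C and A225C, counted from 1 at the 5′ end of the Gm21586 window and marked in capitals.
Gm21586: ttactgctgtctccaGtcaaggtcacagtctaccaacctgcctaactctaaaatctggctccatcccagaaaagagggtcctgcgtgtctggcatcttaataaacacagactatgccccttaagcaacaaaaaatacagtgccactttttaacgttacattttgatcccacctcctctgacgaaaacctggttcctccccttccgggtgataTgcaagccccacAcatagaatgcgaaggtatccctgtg
Ccl27a: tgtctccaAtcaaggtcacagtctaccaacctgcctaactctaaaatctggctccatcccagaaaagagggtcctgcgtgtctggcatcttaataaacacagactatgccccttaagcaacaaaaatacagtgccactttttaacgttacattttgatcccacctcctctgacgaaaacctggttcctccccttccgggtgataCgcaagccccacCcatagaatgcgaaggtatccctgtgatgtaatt

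A short motif search was made on both strands of these windows and of all 32851 promoter windows of the same length. The GATA motif AGATAA occurred in 9.99% of all windows and the TATA motif TATAAA in 12.4%. Neither was in the windows of the Ccl27-related genes, and the Fam205a2 window held both. The cyclic AMP motif TGACGTCA, in 1.55% of all windows, was in none of the windows searched for these genes. A missing match says only that these letters are not in the window. The windows of the Ccl27-related genes hold largely the same sequence, so their missing matches are not separate observations.

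Much of this sequence cannot be assigned to 1 copy. Every stretch of 100 bases in the GENCODE M21 transcripts of a gene was looked up in the transcripts of all other genes. For Gm21953, Gm21586 and Fam205a2 100% of these windows occurred elsewhere, for Fam205a4 99.95%, for Ccl27b 97.9%, for Gm3893 97.5% and for Gm3883 91.6%. The share was 63.5% for Gm13306, 62.4% for Gm13307 and 38.2% for Gm20878. Outside the 10, Ccl27a shared 26.5% of its windows and Fam205c none. The table gives Gm21953 a length of 316 bases and Gm21586 one of 378, longer than the transcripts used here, so the shares describe the shared part. No source used here states how reads that match several places were counted or how long they were. Levels of the single copies are therefore uncertain, and sums over copies are given after them.

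**Figure D1:**
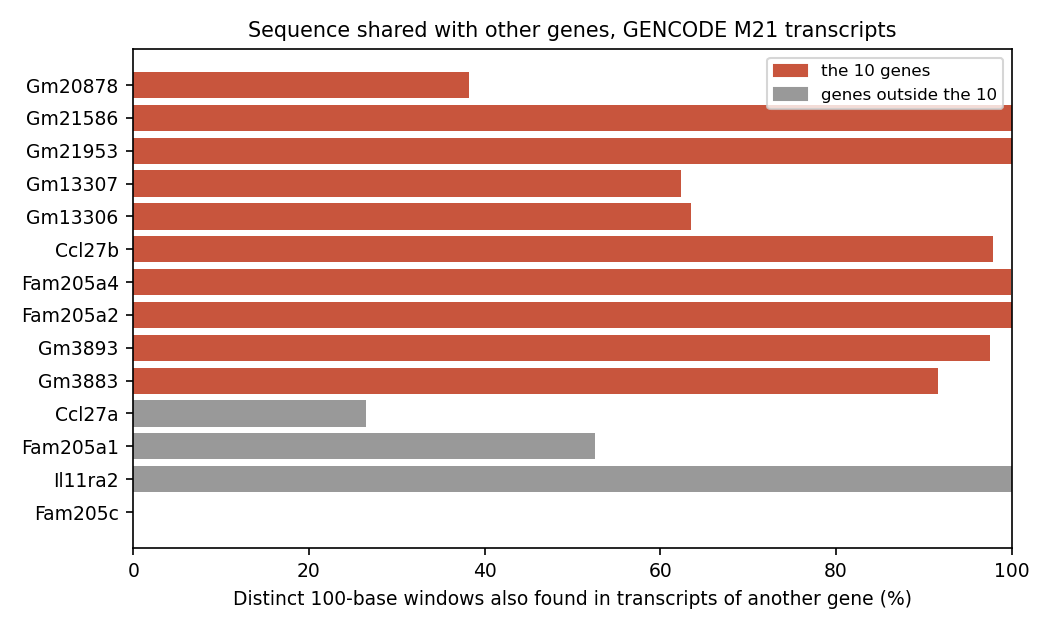
Share of distinct 100-base windows (%, horizontal axis) in the transcripts of each gene that also occurred in transcripts of another gene. Red bars are the 10 genes and grey bars are 4 other genes. The red bars run from 38.2% for Gm20878 to 100% for Gm21953, Gm21586 and Fam205a2, while Fam205c has no shared window.

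Levels are given in RPKM, reads scaled to gene length and library total. Differences are mean log2(RPKM + 1) in Middle minus Control. All 10 genes had a mean of at least 1 RPKM in both groups. All 10 had a lower mean in the Middle libraries, where 44.1% of the 15040 rows tested lay below 0. In 9 of the 10 every Middle library was below every Control library, against 11.4% of all tested rows. The median difference of the 10 was -0.54, and that of all tested rows was 0.03. By limma with Benjamini-Hochberg adjustment over all tested rows, 1 of the 10, Gm21586, lay under an adjusted p of 0.05, where 8 of 15040 rows did (0.0532%, and 0.0465% lower in Middle). The 10 were picked on this contrast, so nothing is read from these counts.

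**Figure D2:**
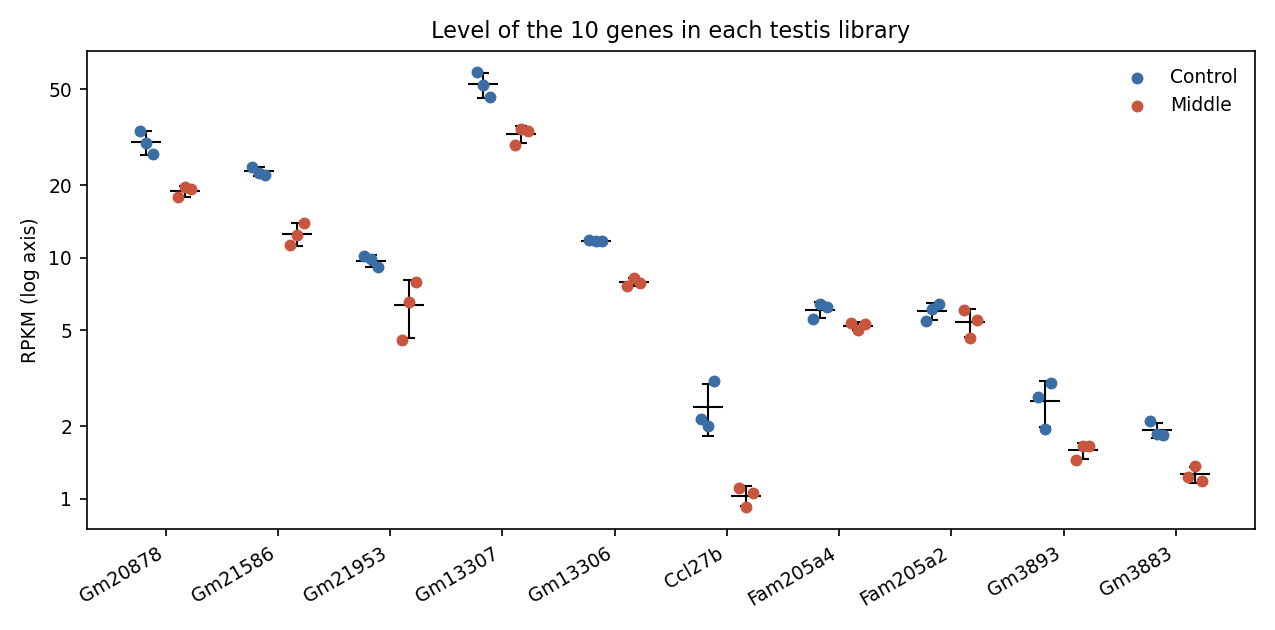
RPKM (vertical axis, log scale) of each of the 10 genes in the 3 Control (blue) and 3 Middle (red) libraries, with the mean and SD as bars. The groups lie apart for 9 genes and overlap for Fam205a2, where Middle replicate 1 at 6.09 RPKM lies among the Control libraries.

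Gm20878, Gm21586 and Gm21953, the copies of the short reading frame, were at 0.55 to 0.65 of their Control level in the Middle libraries. Gm20878 (chromosome 4, 41941572 to 41943124, plus strand) measured 33.8, 30.03 and 26.9 RPKM in Control replicates 1 to 3. In Middle replicates 1 to 3 it measured 17.8, 19.6 and 19.3 RPKM. The lowest Control library was thus above the highest Middle library, and the means were 30.2 ± 3.42 and 18.9 ± 0.97 RPKM (SD, n = 3 each). This log2 difference was -0.64, a ratio of 0.626.

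Gm21586 (42438970 to 42439970) had the largest log2 difference of the 10, -0.82. It measured 23.9, 22.6 and 22.1 RPKM in the Control libraries. In the Middle libraries it measured 11.3, 12.5 and 13.97 RPKM. The Control libraries lay close together and all Middle libraries lay well below them, with a ratio of means of 0.55. The reads behind these values numbered 202 to 499 per library.

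Gm21953 (42293921 to 42294859) carries the same reading frame at a lower level. Its Control values were 10.2, 9.86 and 9.13 RPKM. Its Middle values were 4.54, 6.58 and 7.96 RPKM, the widest relative spread of any of the 10 in the Middle group, with a coefficient of variation of 27.02%. The groups did not overlap, Middle replicate 3 lay closest to the Control libraries, and 68 to 182 reads lay behind each value. The log2 difference was -0.57, and -0.38 without Middle replicate 1. Gm20878 stood at 1.22 to 1.58 times the level of Gm21586 in all 6 libraries.

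Gm13307 is an antisense RNA (41893278 to 41942092, minus strand) and had the highest level of the 10. It measured 58.8, 52.3 and 46.3 RPKM in the Control libraries. It measured 29.5, 34.4 and 33.7 RPKM in the Middle libraries, all below the lowest Control library. The ratio of means was 0.62 and the log2 difference -0.67. Its exons share 204 bases with those of Gm20878 on the other strand, 24.5% of the length of Gm13307 and 13.1% of that of Gm20878. Counting is not stated to use strand, so reads in these bases cannot be assigned to either. The level of Gm20878 was 0.571 to 0.604 of that of Gm13307 in every library, whichever the group.

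Gm13306 and Ccl27b, the copies of the chemokine, were lower by different ratios. Gm13306 (42153436 to 42158839) measured 11.8, 11.8 and 11.7 RPKM in the Control libraries. It measured 7.67, 8.28 and 7.84 RPKM in the Middle libraries. Both groups were tight, with SDs of 0.054 and 0.31 RPKM, and the ratio was 0.67. Ccl27b (42655251 to 42655998) measured 2.15, 2.01 and 3.08 RPKM in the Control libraries. It measured 1.11, 0.92 and 1.06 RPKM in the Middle libraries, and the groups did not overlap. Its ratio of 0.43 was the lowest of the 10 but rests on 18 to 50 reads per library. On the log2(RPKM + 1) scale the difference of Ccl27b was -0.74, which understates the change of a gene at this level. With a pseudocount of 0.1 it was -1.13.

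Fam205a4 and Fam205a2, copies of a gene of the Spata31 group, differed least. Their transcripts were identical over 3927 bases to each other and to Fam205a3, and at 98.9% to Fam205a1. Fam205a4 (41966058 to 41971856) measured 5.56, 6.47 and 6.23 RPKM in Control and 5.36, 5.004 and 5.31 RPKM in Middle. The groups were separate by a narrow margin, and the ratio was 0.86. Fam205a2 (42522580 to 42528175, minus strand) measured 5.45, 6.11 and 6.42 RPKM in Control and 6.09, 4.67 and 5.53 RPKM in Middle. These groups overlapped, with a ratio of 0.91. The log2 difference of Fam205a2, -0.13, was -0.04 without Middle replicate 2, -0.08 without Control replicate 3 and -0.20 without Middle replicate 1. Fam205a3, the identical copy between them, was at 0.29 to 0.44 RPKM in Control and 0.21 to 0.37 RPKM in Middle, far under both although the sequence is the same.

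Gm3893 and Gm3883 were the least abundant of the 10 beside Ccl27b. Gm3893 (42091207 to 42092094) measured 2.65, 1.95 and 3.02 RPKM in Control and 1.45, 1.67 and 1.66 RPKM in Middle, a ratio of 0.63 on 61 to 126 reads. Gm3883 (42456965 to 42461867), annotated as an unprocessed pseudogene, measured 2.10, 1.86 and 1.83 RPKM in Control. It measured 1.24, 1.37 and 1.19 RPKM in Middle, a ratio of 0.66. Neither gene's groups overlapped.

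In order of mean Control level, Gm13307 came first at 52.5 RPKM, then Gm20878, Gm21586, Gm13306, Gm21953, Fam205a4, Fam205a2, Gm3893, Ccl27b and Gm3883. The Control ranges of Fam205a4 and Fam205a2 overlapped, as did those of Gm3893, Ccl27b and Gm3883. The other neighbours in this order were apart by more than their spread. In the Middle group Gm13307 came first too, at 32.5 RPKM.

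Where each read was counted once, sums over copies do not depend on how reads were placed among the rows summed. That is not stated here, and reads left out or counted at several copies would change the sums. The reads of the 5 Ccl27-related copies of the block (Gm20878, Gm21953, Gm21586, Gm13306 and Ccl27b) came to 78.5, 72.0 and 67.1 RPM (reads scaled to the library total) in the Control libraries. In the Middle libraries they came to 42.2, 46.7 and 46.8 RPM. The groups were far apart, with means of 72.5 ± 5.68 and 45.2 ± 2.63 (SD, n = 3 each) and a ratio of 0.62. With Gm13307 added the ratio was 0.62, and with Ccl27a added too it was 0.71, again without overlap. Gm20878 gave 62.3 to 66.8% of the reads of the 5 copies, Gm13306 16.4 to 19.8%, and Gm21586 10.1 to 12.5% over all 6 libraries. The 5 copies and Gm13307 are all among the 10 picked on this contrast, and each was lower in every Middle library. Their sums had to be lower there too and support nothing.

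Gm13307 has relatives of its own, and their sum was added after the values had been seen. Gm13299, inside the block, held at most 6 reads in any library. 4930578G10Rik, outside it, was at 3.91 ± 0.41 RPKM in Control and 3.76 ± 0.53 RPKM in Middle (SD, n = 3 each), and these groups overlapped. The sum of the 3 rows was 53.4, 47.2 and 42.5 RPM in Control and 27.9, 32.8 and 32.2 RPM in Middle, a ratio of 0.65 without overlap. Gm13307, picked on this contrast, gave 87.1 to 92.3% of it, so the sum is no separate observation.

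Ccl27a lies before the block and was not among the 10. It was at 36.0, 32.2 and 32.2 RPKM in Control and 28.3, 27.3 and 29.3 RPKM in Middle, a ratio of 0.846. By limma its log2 difference was -0.23 (SE 0.068), and its adjusted p of 0.178 missed the threshold. Gm20878 stood at 0.837 to 0.938 of the level of Ccl27a in Control and at 0.631 to 0.719 in Middle, ranges that do not overlap. Ccl27a took 39.8 to 42.0% of the reads of the widest Ccl27 sum in Control and 46.3 to 50.2% in Middle.

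The 3 Fam205a copies of the block summed to 45.6, 52.5 and 52.7 RPM in Control and 46.9, 40.4 and 45.2 in Middle. These groups overlapped, at a ratio of 0.88, and the log2 ratio of -0.19 was -0.12 without Middle replicate 2. With Fam205a1, which lies outside the block, the ratio was 0.97 and the groups overlapped again. The direction of that wider sum turned when Middle replicate 2 was left out, from a log2 ratio of -0.04 to 0.03, and it ran from -0.12 to -0.01 without any other single library. Fam205a1 alone went from 7.35 to 8.23 RPKM with an adjusted p of 0.393 by limma.

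The 10 rows related to Gm3883 summed to a ratio of 0.86, with no overlap of the groups. After these sums had been seen they were split by position. The 7 rows between the first and the last of the 10 genes gave 21.9, 20.8 and 19.7 RPM in Control and 12.9, 14.4 and 13.8 in Middle, a ratio of 0.66. The 3 rows outside (Gm10601, Gm12394 and Gm21955) gave 19.4, 20.1 and 19.8 in Control and 18.9, 22.1 and 23.2 in Middle, a ratio of 1.08 with overlap. Their log2 ratio of 0.11 was 0.19 without Middle replicate 1 and 0.05 without Middle replicate 3. The sum inside the block was lower in every Middle library, and the sum of the relatives outside it lay on both sides of the Control values. Gm3883 and Gm3893, picked on this contrast, gave 27.8 to 30.9% and 8.31 to 13.6% of the inside sum. That sum is thus not independent of the picked genes, and the split is a description only.

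Il11ra2, a copy of the interleukin-11 receptor gene, lies beside Ccl27b (42656001 to 42665763, minus strand). Its mean lay just under the limit for testing. It measured 1.10, 1.01 and 0.87 RPKM in Control and 0.56, 0.60 and 0.53 RPKM in Middle, without overlap and on 52 to 115 reads. Summed with Gm13305, its further copy in the block, the ratio was 0.595. Il11ra1, which lies before the block, was at 1.33 RPKM in Control and 1.81 RPKM in Middle with a limma adjusted p of 0.192. It held 243 to 448 reads per library, and every Middle library lay above every Control library. Of the windows of Il11ra2 100% occurred in other genes, Il11ra1 among them. No sum with Il11ra1 was made, and how far placement between these genes shaped the lower sum was not tested.

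**Figure D3:**
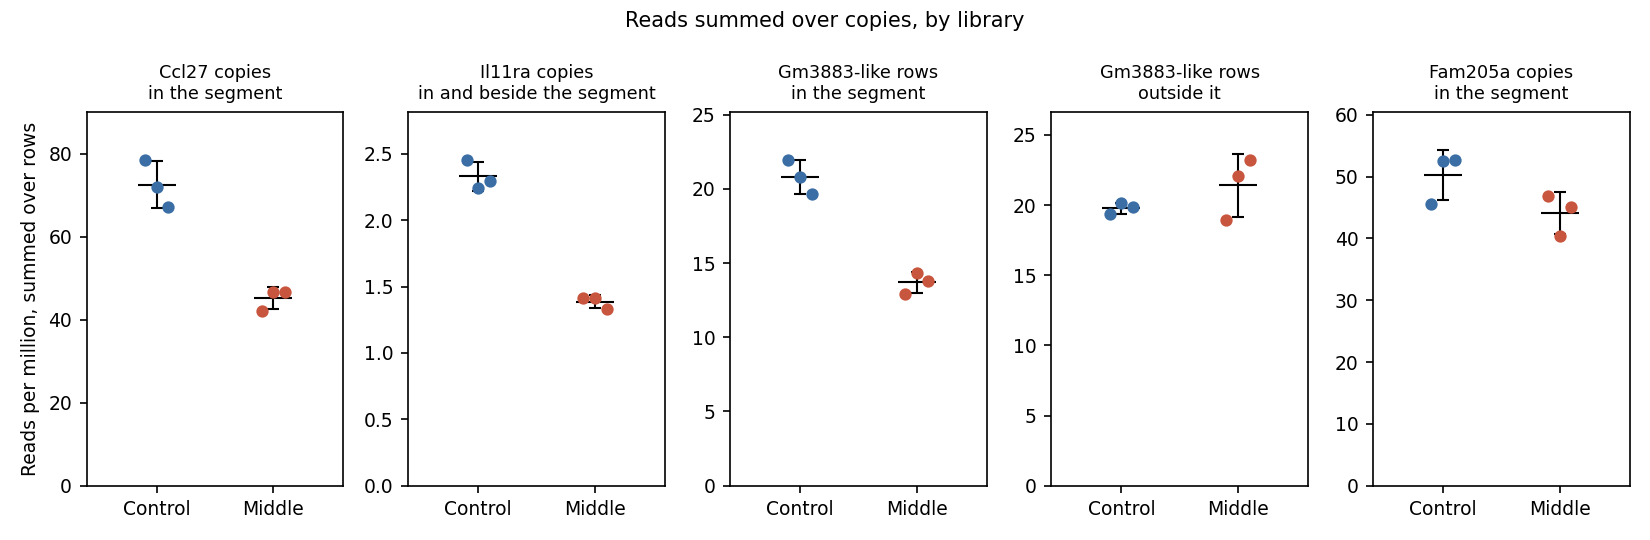
RPM summed over the rows of each copy family (vertical axes, each from 0), for the 3 Control (blue) and 3 Middle (red) libraries, with mean and SD. The groups lie apart for the Ccl27, Il11ra and Gm3883-like rows in or beside the block (ratios 0.62, 0.595 and 0.66) and overlap for the Gm3883-like rows outside it (1.08) and the Fam205a copies (0.88). The Il11ra sum leaves out Il11ra1, whose mean was higher in Middle. The sums hold genes picked on this contrast: all of the Ccl27 rows, Gm3893 and Gm3883, and Fam205a4 and Fam205a2.

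Other rows of the block were measured in the same fit and had no part in the choice by name. Between the first and the last of the 10 genes lay 25 further rows, of which 4 were abundant enough to test: Gm3892, Gm21980, Gm52989 and ENSMUSG00000121464. Gm21980 reached a mean of 1 RPKM in both groups. The other 3 reached it in Control only, so the filter admitted them through the group where they were higher, and neither their direction nor their p-values count as support. None of them lay under an adjusted p of 0.05 by limma, where the lowest was 0.177 for Gm3892. All 4 had an unadjusted limma p under 0.05, as did 3116 of all 15040 rows tested. Limma-voom tested 10 of the 25 rows and called none. Gm21980 measured 5.89, 3.95 and 3.42 RPKM in Control and 2.22, 3.15 and 2.97 RPKM in Middle, on 15 to 45 reads. Gm3892, an antisense RNA related to Gm3883, measured 1.46, 1.55 and 1.39 RPKM in Control and 0.90, 0.96 and 0.93 RPKM in Middle, a log2 difference of -0.35 (SE 0.071). All 4 sat among copies of the 10 genes, and Gm3892 and Gm21980 had 100% of their windows in other genes, so they are not independent of them. Of the 21 rows too low to test, 16 had a lower mean in Middle and 5 a higher one. In 4 of the 21 every Middle library was below every Control library. The highest Control mean among them was 0.77 RPKM and several held only a few reads, so nothing is read from this count.

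Outside the block the direction was mixed. From Myorg to Vcp, 32 further rows lay on either side of the span of the 10 genes and 21 were tested. Of these, 7 lay below 0 and 14 above, with a median of 0.08. In 3 every Middle library was below every Control library, in 5 above, and in 13 the groups overlapped. Of all tested rows 11.4% lay apart below and 17.9% above. None passed an adjusted p of 0.05 by limma, and limma-voom called none of 26. By limma 6 had an unadjusted p under 0.05, as did 3116 of all 15040 rows tested. Fam205c, the most abundant Fam205 gene of the interval and without shared windows, was at 394 RPKM in Control and 320 RPKM in Middle with an adjusted p of 0.178. On the far side Dnajb5, a co-chaperone, lay above 0 with a log2 difference of 0.26 and an adjusted p of 0.178.

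**Figure D4:**
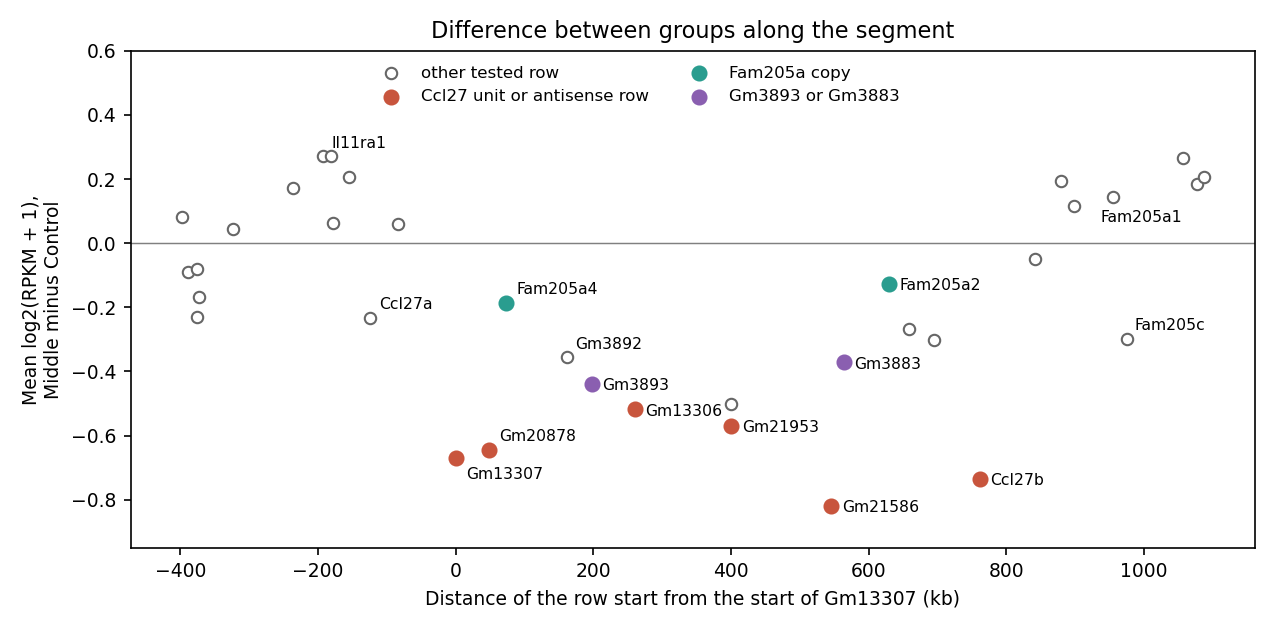
Mean log2(RPKM + 1) in Middle minus Control (vertical axis) against the distance of each row's start from the start of Gm13307 in kb (horizontal axis). Filled points are the 10 genes and open points are the 25 other tested rows of the interval. The 10 genes, picked on this difference, run from -0.82 to -0.13. Of the 4 open points among them 3 passed the filter through Control only, and of the 21 open points outside 14 lie above 0.

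The wider list of related genes held the Ccl27, Ccl19, Ccl21, Il11 and Spata31 families with their receptors and some neighbours of the block. Of 34 genes listed, 31 were in the table and 3 were among the 10. Of the others 19 were tested and none passed by limma, with 13 above 0, 6 below and a median of 0.09. An unadjusted limma p under 0.05 was found for 5 of them, against 3116 of all 15040 rows tested, and limma-voom called none of 24. Ccr10, the receptor of Ccl27, was near 0, with 2 reads in 1 library of each group and 0 in the others. Ccr7 was at 1.35 and 1.23 RPKM, and its adjusted p was 0.731. Spata31 itself was at 56.3 and 53.2 RPKM with an adjusted p of 0.380. Ccl21a was at 0.78 and 1.03 RPKM with an adjusted p of 0.475. All these p-values are from the limma fit over all tested rows.

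The 10 genes were left out of a ranking of likeness to Gm13307 in log2(RPKM + 1) over the 6 libraries. The most alike of the other rows were Coro2a and Btbd16 (Pearson's r of 0.995 each), Nol4 (0.993), ENSMUSG00000121464 (0.991) and Wdr1 (0.990). These were the 5 highest of the tested rows outside the 10, a description over 6 libraries that share their group means and depth. Coro2a, a coronin that lies on chromosome 4 well past the block, measured 16.03, 15.1 and 14.9 RPKM in Control. It measured 12.4, 13.05 and 12.8 RPKM in Middle, and the groups did not overlap.

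Library totals ran from 38820385 to 58389391 reads over all rows in Control and from 46649138 to 56435498 in Middle, so the groups overlapped. Other features of the whole libraries moved with the groups. The rank correlation of each gene's deviation with its GC content was -0.30 to -0.22 in the Control libraries and -0.07 to 0.46 in the Middle libraries, highest in Middle replicate 1. The GC content of the 10 genes ran from 45.1 to 62.1%, and with this trend removed from each library their median difference was -0.62. Without Middle replicate 1 it was -0.45. Mitochondrial genes held 0.84 to 1.04% of reads in Control and 1.18 to 1.58% in Middle, and their part in the result was not tested.

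The libraries held testis cells as labelled. The 6 spermatid markers summed to 27131 to 30056 RPKM in Control and 25494 to 27993 RPKM in Middle. The 5 spermatocyte markers summed to 1755 to 1810 RPKM and 1675 to 1742 RPKM. The 5 Sertoli cell markers summed to 69.4 to 75.9 RPKM and 76.1 to 94.5 RPKM. The 4 spermatogonial markers summed to 13.1 to 14.8 RPKM and 15.1 to 19.2 RPKM, so the last 3 lists did not overlap between the groups, while spermatid, peritubular, Leydig cell, macrophage, blood and epididymis markers overlapped. A sum follows its most abundant genes. The median spermatocyte marker was at 47.6 RPKM, and 2 of the 4 spermatogonial markers passed the filter. The direction of single markers is not given. Of 34 markers tested none passed an adjusted p of 0.05 by limma, and limma-voom called none of 42. An unadjusted limma p under 0.05 was found for 12 of the 34, and for 3116 of all 15040 rows tested. In whole tissue, fewer cells of a type and less RNA per cell cannot be told apart, and the part of these cell types in the levels of the 10 genes was not tested.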

How the data were processed

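The deposited table held RPKM values per gene for 6 libraries, with gene length and coordinates. Per the submitters' processing notes fastp 0.23.0 and GRCm39 were used. No source used here states the aligner, the counter, the use of strand or the handling of reads that match several places. RPKM times gene length gave whole reads for 100% of values (tolerance 0.001), and sums over copies used these reads scaled to each library's total (RPM). Low read numbers were even in 73.3 to 74.7% of rows per library. Mates of a pair may thus have been counted apart, and read numbers may overstate the separate fragments.

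The 15040 rows whose mean reached 1 RPKM in either group were tested with limma 3.58.1 (R 4.3.3; trend, log2(RPKM + 1), two-sided, Benjamini-Hochberg over all rows, threshold 0.05). A fold change on this scale understates the change of low genes. On simulated data the fit recovered the known changes with more false calls than the nominal share, so adjusted p-values near 0.05 are optimistic. The 10 genes and all lists were chosen with earlier results of these data known. Named genes were the 10, tested rows of the interval, tested genes of the family list, and the 5 rows outside the 10 most like Gm13307. The rows related to Gm3883, and those related to Gm13307, were rows of the interval with a BLAST 2.17.0 match of at least 95% over at least 200 bases to that gene. ENSMUSG00000121464 was added to the first through exons shared with Gm2163. The Ccl27, Fam205a and Il11ra sums were set by name and shared sequence. Gm17167 matched Gm3893 but not Gm3883 at this level, held at most 2 reads per library and is in no sum. These sums, shared windows and motifs were set after values were seen. Il11ra2, Gm13305, Gm13299, Gm17167, Fam205a3, Gm21955 and Ccr10 did not pass the filter and were named for their sequence or role after their values were seen. An androgen response element was searched too and was in none of the windows of these genes (0.00913% of all windows). Peritubular, Leydig and macrophage markers summed to 29.3 to 45.7, 235 to 283 and 5.56 to 8.97 RPKM. Blood markers summed to 11.1 to 17.2 RPKM and epididymis markers to 2.62 to 3.25 RPKM. A further marker list is not reported here.

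Replicates of a group differed beyond sampling noise (chi-square per degree of freedom of 6.26 to 34.4), so each library counted once. Alternatives were another pseudocount, no filter and a filter of 5 RPKM, median-of-ratios scaling, limma-voom on the recovered reads, a replicate block, leaving out each library and, added after seeing the data, removal of each library's GC trend.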

Additional observations from a re-analysis of the deposited data

How the results depend on the processing

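All of the 10 genes that could be tested stayed below 0 in every alternative run (127 values), with their median between -0.63 and -0.45, and 9 of these values moved by more than 1 SD. They were Gm13306, Ccl27b, Gm3893 and Gm3883 with a pseudocount of 0.1 or by limma-voom, and Gm13306 with the GC trend removed. The filters and the replicate block cannot change the difference of a gene, so those values only repeat the main run. The 10 were picked on this contrast, so their staying below 0 supports nothing. The number of rows under an adjusted p of 0.05, 8 in the report, was 0 with no filter on low values, 0 with the replicate block and 0 to 3 when 1 library was left out, 3 without Control replicate 1 and 1 without Middle replicate 1. With no filter 4204 rows had an unadjusted p under 0.05, and with the block 2267, against 3116 of the rows tested in the report; limma-voom called 10. None of the other rows of the interval passed under any alternative. Same-numbered libraries had correlated deviations of -0.15, -0.12 and 0.01, so the numbers do not pair them and the replicate block is given only here. Of the 10 genes, none was under the threshold with the block, with no filter or with any 1 library left out. By limma-voom 3 were, where 10 of 23889 rows were. With the filter of 5 RPKM 2 were, where 7 of 7805 rows were. With median-of-ratios scaling 2 were (9 of 15037 rows), and 2 with the GC trend removed (10 of 14003 rows). Nothing is read from these counts either. The log2 ratio of the Fam205a copies with Fam205a1 turned from -0.04 to 0.025 without Middle replicate 2, and the cause was not tested. Depth limits Ccl27b most, at 18 reads in its lowest library.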
